A study of Mus musculus with 34 samples.

Results

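Splenic T cells from wild-type C57BL/6 mice were compared after 24 h of activation and before it, across all genes of a total RNA count table. The comparison used 4 of the 34 libraries of the series: the wild-type libraries labelled day 1 (replicates 1 and 4) and those labelled day 0 (replicates 1 and 2). Cells came from mice of 6-12 weeks as pan T cells, that is CD4 and CD8 T cells together, enriched from spleen by removing other cells. The day 1 cells had been cultured for 24 h with antibodies to CD3 and CD28 and with recombinant IL-2, and the day 0 cells are the unstimulated group. The wild-type libraries at 72 h (replicates 1 and 4) are given beside them. No genotype differs between these groups, and the labels do not say whether replicates are separate mice, so p-values measure the spread between libraries, which may be technical. Below, paired values are given as replicate 1 then 2 for unstimulated cells, and replicate 1 then 4 for 24 h and 72 h.

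Antibody to CD3 engages the T cell receptor complex, antibody to CD28 supplies the main costimulatory signal, and IL-2 signals through its receptor, JAK kinases and STAT5. A naive T cell is a small resting cell. On activation it grows for about a day, making ribosomes, nucleotides and lipids, switches its surface receptors and secreted factors, and then divides repeatedly. Resting T cells also recirculate through lymph nodes and keep PI3K signalling and growth in check through a set of quiescence genes.

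The unstimulated libraries stood apart from every stimulated library of the series in mitochondrial ribosomal and small noncoding RNA. Their depth was 47.8 and 44.0 M counts (M is 1000000), against 26.4 and 10.4 M at 24 h. Mitochondrial ribosomal RNA took 17.2% and 17.5% of their counts, against 0.0099% and 0.0091% at 24 h and at most 0.18% in any of the 32 stimulated libraries. Small noncoding RNA took 14.8% and 15.3%, against 4.17% and 4.39%. The unstimulated libraries also carried the X-inactivation transcript Xist (a mean of 1169 CPM, that is counts per 1000000 with TMM scaling, against 0.721 at 24 h), and no reads of the Y-linked gene Ddx3y, which averaged 88.3 CPM at 24 h. Day of stimulation, animal sex, library composition and depth therefore cannot be told apart here.

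The labelled cell type was checked against marker genes. T cell markers summed to 3997 and 3689 counts per 1000000 of all counts in unstimulated cells and to 4587 and 4722 at 24 h, and all 17 were detected. By gene, with TMM scaling, 4 of the 17 were higher and 7 lower at 24 h (median log2 fold change -0.21). The sums are taken over all counts, which include the mitochondrial ribosomal and small noncoding RNA of the unstimulated libraries. B cell markers summed to 3289 and 3202 in unstimulated cells and to 395 and 234 at 24 h. Myeloid markers went from 436 and 411 to 92.5 and 102, and erythroid markers from 275 and 628 to 2.39 and 40.4. NK cell markers went from 236 and 212 to 168 and 132, neutrophil markers from 8.37 and 33.1 to 1.63 and 0.48, and dendritic cell markers from 267 and 225 to 288 and 255. By gene, 19 of 19 B cell, 19 of 20 myeloid, 11 of 11 erythroid, 9 of 10 NK, 7 of 7 neutrophil and 8 of 10 dendritic cell markers tested were lower at 24 h. The dendritic cell sum did not follow its members, since Irf8, which activated T cells also express, went from 89.5 and 77.9 to 229.8 and 182 CPM. The NK cell sum fell less than its members, whose median log2 fold change was -2.95, with 1 member higher (1.505). Platelet markers summed to 79.5 and 75 before and to 55.2 and 83.9 at 24 h, with 4 of 5 tested lower. Stromal and endothelial markers went from 141 and 137 to 123 and 158, with 5 of 6 tested lower. The complement genes C1qa, C1qb and C1qc of macrophages, chosen after their values were seen, were at 0 in both 24 h libraries. In such bulk samples fewer cells of a type and less RNA per cell cannot be told apart. For genes that these cell types express, the part of the other cells in a decrease was not tested.

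**Figure D1:**
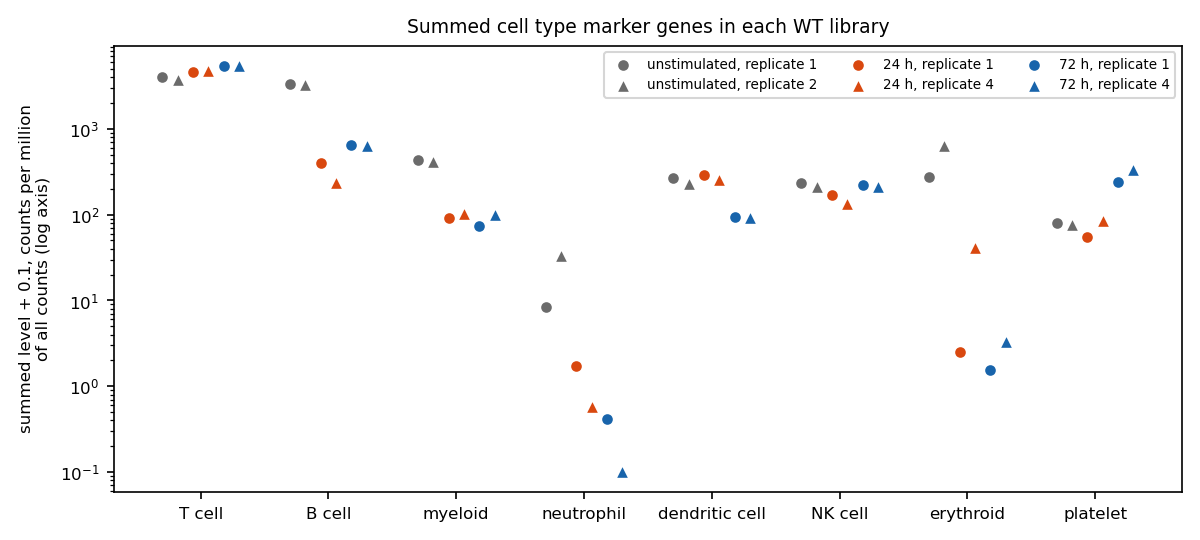
Summed level of cell type marker genes in the wild-type libraries at 0, 24 and 72 h, as counts per 1000000 of all counts plus 0.1 on a log axis; each point is 1 library. T cell markers stand at 3997 and 3689 in unstimulated cells and at 4587 and 4722 at 24 h, whereas B cell markers stand at 3289 and 3202 in unstimulated cells and at 395 and 234 at 24 h.

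Of 18292 genes tested, 9390 (51.3%) differed between 24 h and unstimulated cells at an adjusted p under 0.05 (edgeR quasi-likelihood F test, Benjamini-Hochberg). At 24 h 4420 genes (24.2%) were higher and 4970 (27.2%) were lower, and 2079 (11.4%) and 2882 (15.8%) of these differed by at least 2-fold. The large changes were mostly decreases: 919 genes were at least 16-fold lower and 68 at least 16-fold higher. Both 24 h values lay outside the unstimulated pair for 77.3% of all genes tested, so that non-overlap alone says little about a gene. The median log2 fold change over all genes was -0.02. The counts of members called, given below for lists of genes with a shared role, are to be read against these shares.

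A stricter description sets the unstimulated pair against all 32 stimulated libraries, whatever their genotype or day. Of the 4420 genes higher at 24 h, 1494 (33.8%) were lower in both unstimulated libraries than in every stimulated one. Of the 4970 genes lower at 24 h, 2841 (57.2%) were higher in both unstimulated libraries than in every stimulated one. Over all 18292 genes tested, 8.6% had the unstimulated pair below every stimulated library and 16.8% had it above. All B cell markers and all but 1 of the 20 myeloid markers belonged to the second kind.

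The strongest increases were in genes of activated T cells. Lif, which encodes a cytokine of the IL-6 family (chr11:4257557-4272514, plus strand of GRCm38), stood at 0.585 and 0.661 CPM in unstimulated cells and at 134 and 79.1 CPM at 24 h, which is 7.42 ± 0.90 (SE) as a log2 fold change with an adjusted p of 2.54e-07. Gzmb, which encodes the cytotoxic protease granzyme B (chr14:56258838-56262260, minus strand), went from 7.41 and 9.89 to 371 and 216 CPM (5.09 ± 0.77, adjusted p = 5.67e-06). Neither gene overlapped between the groups. Il2ra, which encodes the high-affinity subunit of the IL-2 receptor (chr2:11642807-11693193, plus strand), rose from 26.9 and 30.4 to 786 and 644 CPM (4.64 ± 0.30, adjusted p = 3.48e-12). Under a naming rule that kept genes whose log2 CPM averaged 3 or more and whose groups did not overlap, and left out predicted, mitochondrial, small noncoding, antigen receptor and Y-linked genes, Xist and markers of other cells, the 20 genes with the largest increases held, among others, Ccl3, Nr4a3, Cish, Il12rb2, Bcat1, Gbp2, Lag3, Pros1, Anp32b, Gbp5, Pim2, Hivep3, Muc6, Irf4, Lta and Ifng, with log2 fold changes from 3.72 for Ifng to 4.95 for Ccl3. In the CD28 knockout libraries at 24 h (replicates 1 and 2), Lif stood at 1.04 and 2.2 CPM, Gzmb at 18.4 and 34.3 and Il2ra at 96.9 and 91.6. Those values lie between the unstimulated and the wild-type 24 h values. For other genes of the same 20 at least 1 knockout library lay outside that range: Ifng stood at 0.518 and 0.783 CPM in the knockout, Ccl3 at 0.863 and 1.13, Irf4 at 64.7 and 48.4, Muc6 at 24 and 17.5 and Il12rb2 at 2.19 and 5.34. These genes were picked after their values were seen, and the knockout was not tested against the wild type here.

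**Figure D2:**
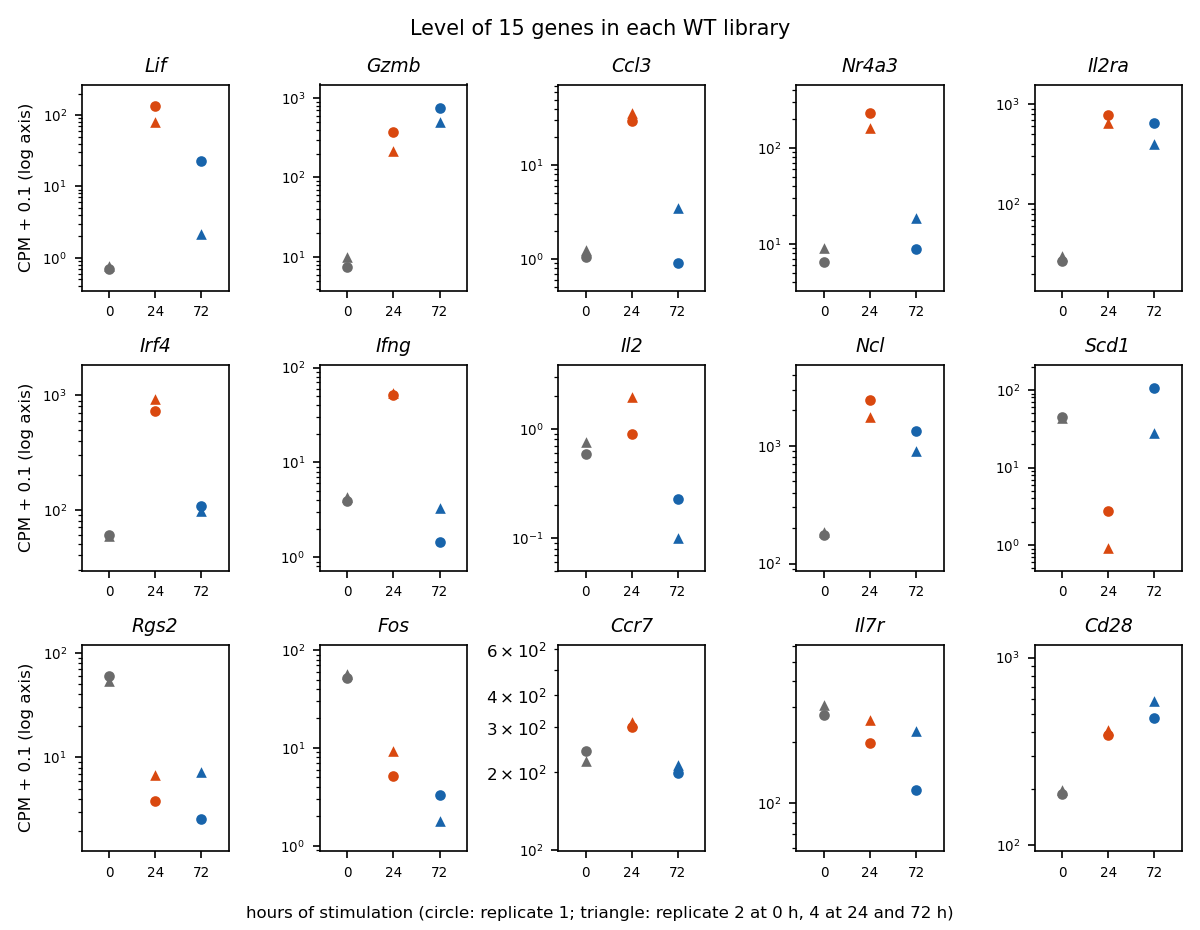
Level of 15 genes in the wild-type libraries at 0, 24 and 72 h of stimulation, in CPM plus 0.1 on a log axis that differs between panels; each point is 1 library. Lif, Ccl3, Nr4a3, Irf4 and Ifng are high at 24 h and lower at 72 h, Scd1 is low at 24 h only, and Ccr7 and Il7r did not pass the test at 24 h.

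Secreted factors moved as single genes rather than as a class. Of 20 cytokine genes tested, 7 rose and 4 fell (median of all 20: 1.32 in log2). Lta, encoding lymphotoxin alpha, rose from 7.68 and 8.13 to 137 and 74.6 CPM (3.75 ± 0.42), and Ifng, encoding interferon gamma, from 3.78 and 4.19 to 51.6 and 53.7 CPM (3.72 ± 0.72). Tnf rose from 24.2 and 16.5 to 104 and 75.6 CPM (2.14 ± 0.40) and Tgfb1, encoding an inhibitory cytokine, from 38.9 and 45 to 138 and 126 CPM (1.66 ± 0.15). Ltb, whose product forms a membrane complex with lymphotoxin alpha, moved the other way, from 283 and 264 to 125 and 145 CPM (-1.02 ± 0.12). Il16 also fell, by 0.86 ± 0.13 on the log2 scale. Il2 itself, which lies outside the naming rule and was chosen after its values were seen, was barely detected, at 0.488 and 0.661 CPM before and 0.793 and 1.84 CPM at 24 h (1.12 ± 0.60, adjusted p = 0.122). Of the 27 cytokine genes listed, 7 (Il3, Il6, Il9, Il17a, Il22, Il27 and Areg) had too few counts to be tested.

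Among 10 chemokine genes, 4 rose and 3 fell, with 7 called higher when no filter was set on low counts and 7 with only the 4 libraries in the fit. Ccl3 and Ccl4, inflammatory chemokine genes of activated T cells, rose from 0.951 and 1.16 to 29.5 and 36 CPM (4.95 ± 0.72) and from 1.37 and 1.27 to 17.8 and 19.9 CPM (3.83 ± 0.54). Ccl5, which resting memory CD8 T cells store as transcript, fell from 42.2 and 43.5 to 14.6 and 9.77 CPM (-1.79 ± 0.48), and at 72 h it stood at 32.4 and 43.8. Ccl1 was near 0 before stimulation (2 and 0 counts) and reached 2.05 and 4.24 CPM, and no fold is given because of those low counts.

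Of 29 cytokine receptor genes tested 7 rose and 8 fell, near the shares over all genes tested. Receptor chains for IL-2 and IL-15 rose together: Il2rg, the shared gamma chain, from 208 and 207 to 325 and 355 CPM (0.71 ± 0.08), and Il15ra from 6.41 and 6.75 to 18.6 and 21.2 CPM (1.59 ± 0.15). Both chains of the IL-12 receptor rose, Il12rb2 from 6.02 and 5.43 to 101 and 154 CPM (4.47 ± 0.34) and Il12rb1 from 15.1 and 17.1 to 83.4 and 71.1 CPM (2.27 ± 0.29). Il9r fell from 21.5 and 13.9 to 0.901 and 0.461 CPM (-4.58 ± 0.62, and -5.29 without replicate 1 of the 24 h group). The survival receptor gene Il7r did not pass the test, with a mean of 289 CPM before and 228 CPM at 24 h (log2 fold change -0.35 ± 0.39, adjusted p = 0.487), and it too was chosen after its values were seen.

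Feedback genes of the JAK-STAT pathway were among the clearest increases. Of 23 genes of the list, 11 rose and 4 fell. Cish, a STAT5 target whose product restrains cytokine receptors, rose from 11.1 and 9.59 to 255 and 278 CPM (4.68 ± 0.40, adjusted p = 6.13e-10). Socs2 and Socs1, which encode inhibitors of the same kind, rose from 9.34 and 8.62 to 75.4 and 67.2 CPM (2.99 ± 0.34) and from 13.9 and 12.5 to 51.2 and 65.7 CPM (2.14 ± 0.20). Pim2 and Pim1, encoding kinases that support growth and survival, rose by 3.90 and 1.56 on the log2 scale. The kinase genes Jak2 and Tyk2 fell by 0.61 ± 0.13 and 0.63 ± 0.10. Without replicate 1 of the 24 h group, 2 rather than 4 genes of the list were called lower, and without replicate 1 of the unstimulated group also 2.

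Immediate early factors, the transcription factors switched on within an hour of receptor engagement, did not share a direction at 24 h: 11 rose and 6 fell of 21 tested. The NR4A and EGR factors, which T cell receptor signals induce, were among the higher ones. Nr4a3 rose from 6.34 and 8.9 to 230.4 and 163 CPM (4.69 ± 0.35, adjusted p = 4.91e-11) and Egr1 from 18.3 and 17.2 to 61.8 and 104 CPM (2.22 ± 0.27). Myc, the growth regulator, rose from 53.7 and 52.3 to 273 and 241 CPM (2.28 ± 0.29). Subunits of the AP-1 factor were lower: Fos went from 51.5 and 56.9 to 5.12 and 9.12 CPM (-2.97 ± 0.36) and Fosb from 47.3 and 43.7 to 1.55 and 2.4 CPM (-4.59 ± 0.67). Ier5 fell by 1.31 ± 0.19.

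Transcription factors of effector cells were mostly higher, with 14 higher and 7 lower of 26. Irf4, a factor whose level follows receptor signal strength (chr13:30749226-30766976, plus strand), rose from 60.6 and 58.3 to 724 and 931 CPM (3.8 ± 0.29, adjusted p = 7.30e-11). Tbx21, encoding the Th1 and cytotoxic regulator T-bet, rose from 22.3 and 23.8 to 87.9 and 88.3 CPM (1.93 ± 0.27). Ikzf4, Rel, Hif1a and Nfkb1 rose by 2.72, 1.65, 1.19 and 0.65 on the log2 scale. Rora, Ahr and Id2 fell, by 1.29 ± 0.24, 1.27 ± 0.30 and 1.26 ± 0.33. Id2 and Rora are also expressed by NK and other innate cells, whose markers were lower at 24 h. The count of lower members was 4 without replicate 1 of the 24 h group.

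The list of naive and quiescence transcription factors did not fall as a class. Of 26 tested, 6 rose and 9 fell, near the shares over all genes, and the median was -0.02. Bach2, which restrains effector differentiation, rose from 83.6 and 91.9 to 274 and 356 CPM (1.84 ± 0.22). Runx3, which is not confined to naive cells, and Elf4 rose by 1.74 and 0.72. Btg2, an antiproliferative gene, fell from 226 and 242 to 57.2 and 89.9 CPM (-1.68 ± 0.29), and Klf4 and Id3 fell by 2.62 ± 0.48 and 1.49 ± 0.26. The lower count was 4 without replicate 1 of the 24 h group.

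Costimulatory receptors moved in both directions. Icos went from 64.1 and 64.1 to 166 and 172 CPM (1.39 ± 0.15) and Tnfrsf4, encoding OX40, from 14 and 12.1 to 42.9 and 55.9 CPM (1.92 ± 0.22). Cd28, whose product the stimulating antibody binds, rose from 187 and 198 to 387 and 411 CPM (1.05 ± 0.18, adjusted p = 2.32e-05). Over the list, 7 of 23 rose and 5 fell, against 24.2% and 27.2% of all genes tested. Among the 5 was Cd226 (-0.91 ± 0.16), an activating receptor that NK cells also carry. The lower count was 3 without replicate 1 of the 24 h group.

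Inhibitory receptors and ligands held large changes in both directions, 5 higher and 8 lower of 17. Lag3 rose from 2.83 and 2.62 to 33.1 and 67 CPM (4.18 ± 0.43), Cd274, encoding PD-L1, from 35.9 and 31.4 to 109 and 187 CPM (2.13 ± 0.24), and Tigit from 1.15 and 1.13 to 7.1 and 9.31 CPM (2.83 ± 0.36). Vsir, encoding the quiescence checkpoint VISTA, fell from 315 and 285 to 105 and 134 CPM (-1.33 ± 0.16). Cd244a and Ceacam1, which B, myeloid or NK cells express strongly, fell from 20.9 and 19.9 to 0.648 and 1.01 CPM and from 13.9 and 17.5 to 0.829 and 1.38 CPM.

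Genes of the T cell receptor complex moved unequally. Cd3e rose from 72.8 and 73.9 to 239 and 305 CPM (1.89 ± 0.09, adjusted p = 3.35e-14), while its partners Cd3g and Cd3d fell from 273 and 269 to 134 and 142 CPM (-0.98 ± 0.08) and from 229.8 and 242 to 138 and 159 CPM (-0.67 ± 0.11). Across all 32 stimulated libraries Cd3e was never below 239 CPM, so that the unstimulated pair lay apart from all of them. Among 35 signalling genes 5 rose and 9 fell, against 24.2% and 27.2% of all genes tested. Nfatc2 and Nfatc1, encoding calcium-regulated factors, rose from 27 and 30.3 to 144 and 128 CPM (2.25 ± 0.12) and from 119 and 112 to 207 and 239 CPM (0.95 ± 0.12). Sit1, an adaptor gene, and Tbc1d10c fell by 2.18 ± 0.14 and 1.34 ± 0.11.

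Brakes on signalling also divided. Of 28 genes linked to anergy and negative signalling, 9 rose and 11 fell. The ubiquitin ligase genes Cbl and Cblb rose from 143 and 160.3 to 369 and 386 CPM (1.32 ± 0.07) and from 91.8 and 99.7 to 246 and 331 CPM (1.59 ± 0.15). Dtx1, a Notch-pathway ligase gene that B cells also express, fell from 255 and 215 to 15 and 15.2 CPM (-3.96 ± 0.30) and stood at 0.947 and 1.88 at 72 h. Of 23 genes that restrain PI3K and mTOR, 4 rose and 9 fell. Ddit4 and Sesn1, inhibitors of mTORC1, fell from 38 and 42.5 to 9.83 and 13.5 CPM (-1.80 ± 0.28) and from 109 and 117 to 36.4 and 41.2 CPM (-1.55 ± 0.23), and Inpp5d, encoding a lipid phosphatase, fell by 0.81 ± 0.14. Phlpp2 and Inpp4b, which encode phosphatases of the same pathway, rose by 1.22 and 0.88.

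Genes of the machinery that makes ribosomes rose together. Of 35 genes for RNA polymerase I and ribosome assembly, 31 rose and none fell, 20 of them by at least 2-fold, with a median of 1.14. Ncl, encoding nucleolin (chr1:86344719-86359400, minus strand), went from 173 and 185 to 2452 and 1746 CPM (3.55 ± 0.24, adjusted p = 1.09e-11), and it was never below 521 CPM in any of the 32 stimulated libraries. Gar1, a component of the small nucleolar ribonucleoprotein, rose from 6.22 and 6.47 to 47.7 and 37 CPM (2.74 ± 0.37), and Fbl, encoding the methyltransferase fibrillarin, from 49.8 and 48.3 to 185 and 155 CPM (1.80 ± 0.28). Npm1, a histone and ribosome chaperone gene, rose from 601 and 636 to 1818 and 1338 CPM (1.35 ± 0.19). All 35 members were lower in replicate 4 than in replicate 1 at 24 h, with both still above the unstimulated pair for 34 of 35. Over all genes tested the groups did not overlap for 77.3%.

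With TMM scaling, ribosomal protein genes went the other way, by small amounts. Of 54 tested, 36 fell and 5 rose, and the median log2 fold change was -0.28. Rplp1 fell from 1217 and 1166 to 488 and 467 CPM (-1.32 ± 0.09) and Rps19 from 846 and 850.4 to 466 and 452 CPM (-0.89 ± 0.08). Rps16 and Rpl28 rose, from 378 and 378 to 634 and 604 CPM (0.71 ± 0.08) and from 339 and 367 to 563 and 527 CPM (0.63 ± 0.09). For 32 of the 54 genes the unstimulated pair lay above every one of the 32 stimulated libraries, against 16.8% of all genes tested. These values are CPM with TMM scaling, and they do not say whether the number of such transcripts per cell fell. Without that scaling, the 54 genes summed to 42906 and 41575 counts per 1000000 of all counts in unstimulated cells. At 24 h they summed to 44140 and 42912, so their summed share of all counts was not lower. All counts include the mitochondrial ribosomal and small noncoding RNA of the unstimulated libraries. Many ribosomal protein genes have processed pseudogenes with near-identical sequence, between which the reads may have been split. The number of higher members was 3 without replicate 1 of the 24 h group and 3 without replicate 1 of the unstimulated group.

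Genes of translation and nuclear transport rose together. Of 31 translation factors 22 rose and 2 fell. Pabpc1, encoding the poly(A)-binding protein, rose from 236 and 284 to 1919.5 and 1814 CPM (2.84 ± 0.10, adjusted p = 6.42e-17), and Eif3b, an initiation factor subunit, from 65.7 and 69 to 366 and 281 CPM (2.26 ± 0.29). Pabpc1 was at least 905 CPM in all 32 stimulated libraries. Of 23 aminoacyl-tRNA synthetase genes 19 rose and none fell (median 1.01). Wars, the tryptophan enzyme, which interferon gamma also induces, rose from 48.6 and 47.9 to 169 and 245 CPM (2.10 ± 0.18). Of 29 nuclear transport genes 26 rose and none fell, with Ipo5, an importin, going from 107 and 112 to 489.9 and 355 CPM (1.95 ± 0.29).

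Chaperone and degradation genes followed. All 17 called members of the 20 cytosolic chaperones rose, and Hsp90ab1 and Hsph1 went from 940.4 and 938 to 2991 and 2689 CPM (1.6 ± 0.19) and from 36.4 and 39 to 230.4 and 222 CPM (2.58 ± 0.37). Of 37 proteasome genes 29 rose and 2 fell. Psmd11, a regulatory particle subunit, rose from 39.3 and 41 to 148 and 139 CPM (1.84 ± 0.18). Psmb10, a catalytic subunit of the immunoproteasome, fell from 75.8 and 71.1 to 36.9 and 37.1 CPM (-0.99 ± 0.15). Replicate 1 of the 24 h group carried part of these counts: without it 8 synthetase, 14 nuclear transport and 17 proteasome genes were called higher, against 19, 26 and 29 with it.

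**Figure D3:**
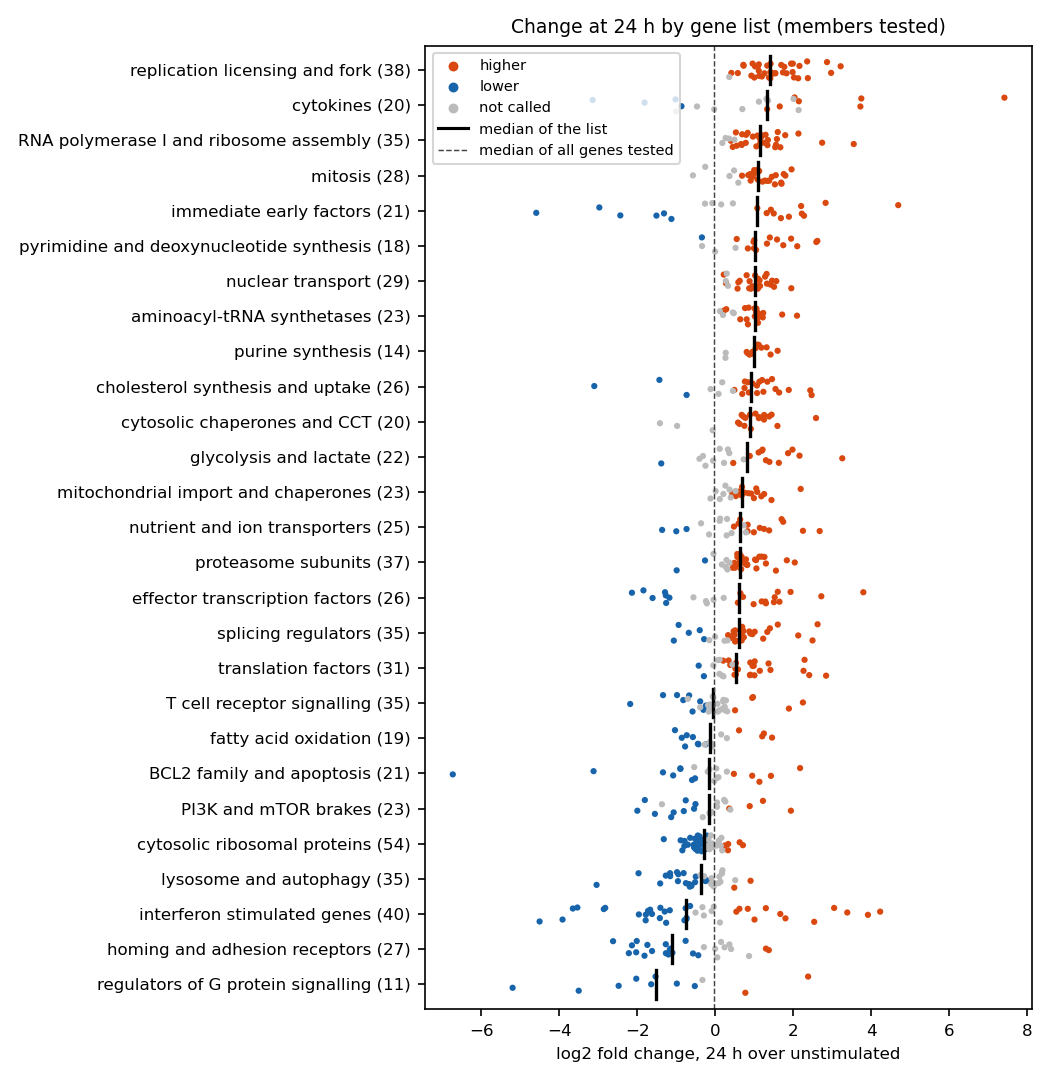
Log2 fold change at 24 h over unstimulated cells for each member of 27 gene lists, with the number of members tested in parentheses; orange points were higher, blue points lower and grey points not called. The black bar is the median of a list and the dashed line that of all genes tested (-0.02). Ribosome assembly has no blue point among 35 members, while the interferon list spans both sides.

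Genes of nucleotide synthesis rose in both branches. Of 14 purine genes 12 rose and none fell, and Pfas, an early enzyme of the pathway, went from 67.3 and 72.2 to 253 and 169 CPM (1.6 ± 0.30). Of 18 pyrimidine and deoxynucleotide genes 14 rose and 1 fell. Rrm2, the regulated subunit of ribonucleotide reductase, rose from 26.3 and 29.7 to 244 and 98.7 CPM (2.62 ± 0.32, and 1.77 without replicate 1 of the 24 h group). Samhd1, whose product destroys deoxynucleotides, rose too, from 299 and 332 to 1444 and 2364 CPM (2.59 ± 0.26). Serine and one-carbon genes, which feed both branches, numbered 20, of which 14 rose and 3 fell, Shmt1 going from 15.5 and 15.9 to 98 and 65.9 CPM (2.39 ± 0.33).

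About as many genes of nutrient uptake and glycolysis rose as did not. Among 25 transporter genes 13 rose and 3 fell. Slc7a5, the large neutral amino acid carrier, rose from 22.6 and 23.9 to 181 and 116 CPM (2.68 ± 0.51) and Slc7a1, the arginine carrier, from 45.1 and 44.8 to 234 and 193 CPM (2.25 ± 0.31). The glucose carrier gene Slc2a3 fell from 67.6 and 70.5 to 36.5 and 32.4 CPM (-1.0 ± 0.18). Of 22 glycolysis genes 12 rose, among them Hk2, hexokinase 2, from 8.66 and 7.49 to 94.5 and 59.5 CPM (3.26 ± 0.63), and Gapdh from 236 and 242 to 1154 and 985 CPM (2.16 ± 0.27). The only member that fell was Pfkfb4 (-1.38 ± 0.22). Pkm, encoding pyruvate kinase, rose from 350.1 and 357 to 887 and 643 CPM (1.11 ± 0.32, adjusted p = 0.00513), a call that was lost without replicate 1 of the 24 h group (0.82, adjusted p = 0.0886). Without that library 8 transporters were called higher. Of the 3 transporters called lower, Slc30a1 and Slc43a1 were also lost without it.

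Mitochondrial genes of nuclear origin differed between lists. The median log2 fold change was 0.368 for the TCA cycle, 0.678 for import and chaperones and -0.14 for fatty acid oxidation. Of 20 genes of the TCA cycle 9 rose and 1 fell, and Mdh2 went from 68 and 65.3 to 162 and 158 CPM (1.26 ± 0.17). Of 23 genes for mitochondrial import and chaperones 15 rose and none fell. Hspd1, the matrix chaperone HSP60, rose from 160.2 and 169 to 868 and 637 CPM (2.19 ± 0.37), and stood at 364 and 221 at 72 h. Without replicate 1 of the 24 h group 4 and 6 genes of these lists were called higher, and without replicate 1 of the unstimulated group 9 import genes. Of 19 fatty acid oxidation genes 4 rose and 8 fell. Acaa2, the last enzyme of the cycle, fell from 46.4 and 47.9 to 25 and 20.9 CPM (-1.03 ± 0.10), and Acadl and Etfa rose by 1.21 and 1.46. The lower count was 5 without replicate 1 of the 24 h group and 5 without replicate 2 of the unstimulated group.

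Most genes listed for sterol synthesis and uptake rose, while 2 sterol exporter genes fell. Of 26 genes for cholesterol synthesis and uptake 19 rose and 3 fell. Idi1, isopentenyl diphosphate isomerase, rose from 26.8 and 20.5 to 148 and 114 CPM (2.47 ± 0.32) and Srebf2, the regulator of the pathway, from 74 and 66.5 to 174 and 181 CPM (1.34 ± 0.11). For 14 of the 26 genes both unstimulated libraries lay below all 32 stimulated ones, against 8.6% of all genes tested. The fallers were led by the sterol exporters Abca1, from 59.6 and 69.1 to 8.54 and 6.18 CPM (-3.10 ± 0.49), and Abcg1, from 113 and 98.2 to 39.7 and 38.5 CPM (-1.43 ± 0.23). Both genes are LXR targets that macrophages also express, and the part of those cells in the decrease was not tested. The third, Tm7sf2, lost its call without replicate 1 of either group.

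Fatty acid synthesis was more mixed, with 7 higher and 4 lower of 17. Fasn, the core enzyme, rose from 171 and 174 to 525 and 465 CPM (1.52 ± 0.29). Scd1, the desaturase that makes oleic acid, fell from 44.5 and 43.6 to 2.63 and 0.83 CPM (-4.49 ± 1.07, adjusted p = 0.00111) and stood at 106 and 27.6 at 72 h. Its log2 fold change was -5.76 without replicate 1 of the 24 h group and -4.05 without replicate 4. The list had 4 members called higher without replicate 1 of that group, and 2 called lower without replicate 4.

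Promoters were searched for the CCAAT box, which the factor NF-Y binds, as CCAAT on either strand from 250 bases before to 50 after the transcript start (RefSeq, GRCm38.p6). Of all 32851 promoters in the table, 37.4% held the motif. For lists, a gene was counted once if any of its starts held the motif. These shares are therefore not measured like the 37.4%, which counts each promoter, and the 2 cannot be set against each other. The motif was present for 16 of 17 genes of the endoplasmic reticulum folding list (94.1%) and 19 of 24 of the mitosis list (79.2%). Among other lists that rose, it was present for 13 of 17 one-carbon genes (76.5%) and 21 of 31 replication genes (67.7%). It was also present for 10 of 30 ribosome assembly genes (33.3%), 5 of 13 purine genes (38.5%) and 12 of 31 proteasome genes (38.7%). The MHC class I list, with 3 genes higher and 4 lower, held it for 11 of 12 genes (91.7%). All these lists were picked after their shares were seen, and no test was made. For the cholesterol list 18 of 26 genes had a promoter in the table, and for all tested protein-coding genes 10434 of 13359. Both are under 80% of the genes, so a share over either set is void and is not given. A promoter of 1 gene that rose in each of the cholesterol, endoplasmic reticulum folding and mitosis lists is printed to show where the motif lies. The bases run 5′ to 3′ on the strand of the gene, with CCAAT or its complement ATTGG in capitals.
Idi1 (chr13:8885356-8885655, plus strand): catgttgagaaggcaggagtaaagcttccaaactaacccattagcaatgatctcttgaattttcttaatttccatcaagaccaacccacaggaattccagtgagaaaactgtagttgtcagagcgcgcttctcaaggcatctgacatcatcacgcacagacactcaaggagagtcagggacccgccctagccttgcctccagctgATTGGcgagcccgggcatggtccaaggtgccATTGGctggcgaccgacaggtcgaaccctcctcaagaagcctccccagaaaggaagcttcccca
Pdia3 (chr2:121413652-121413951, plus strand): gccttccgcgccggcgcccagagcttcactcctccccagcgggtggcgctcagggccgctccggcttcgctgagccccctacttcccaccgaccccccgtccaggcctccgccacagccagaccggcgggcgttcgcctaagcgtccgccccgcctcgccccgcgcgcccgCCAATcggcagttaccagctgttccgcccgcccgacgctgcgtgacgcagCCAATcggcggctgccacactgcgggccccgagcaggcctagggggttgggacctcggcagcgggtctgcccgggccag
Bub1 (chr2:127831810-127832109, minus strand): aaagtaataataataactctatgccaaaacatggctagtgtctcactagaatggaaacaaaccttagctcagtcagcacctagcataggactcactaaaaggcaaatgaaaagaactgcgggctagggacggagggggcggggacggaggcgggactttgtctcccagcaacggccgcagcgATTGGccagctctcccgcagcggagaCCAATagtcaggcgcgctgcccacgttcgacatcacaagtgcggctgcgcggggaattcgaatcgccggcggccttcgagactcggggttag
Each of the 3 holds the motif at 2 places, the farther one starting 45 bases before the transcript start in Idi1, 79 in Pdia3 and 68 in Bub1. A match is a description of letters and not a binding site. Pdia3, a disulfide isomerase gene of the endoplasmic reticulum, rose from 127 and 134 to 469 and 439 CPM (1.80 ± 0.18), and Bub1, a kinase gene of the mitotic checkpoint, from 12 and 13.3 to 57.5 and 22.9 CPM (1.69 ± 0.29).

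Of the 20 endoplasmic reticulum folding genes 12 rose and 3 fell. The members that fell, Herpud1, Dnajb9 and Dnajc3, are stress-response genes of that compartment, and they fell by 1.06 ± 0.17, 0.87 ± 0.16 and 0.32 ± 0.10 on the log2 scale, the last a call lost without replicate 4 of the 24 h group or replicate 1 of the unstimulated group. The count of higher members moved, to 3 without replicate 1 of the 24 h group, 6 without replicate 1 of the unstimulated group and 7 without replicate 2.

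DNA replication genes rose almost without exception. Of 38 genes for replication licensing and the fork, 37 rose and none fell, 31 by at least 2-fold, with a median of 1.42. Lig1, DNA ligase 1, rose from 22.8 and 23.7 to 236 and 129 CPM (2.97 ± 0.27, adjusted p = 2.30e-09), Orc1, an origin-binding subunit, from 3.76 and 4.74 to 46.3 and 32.2 CPM (3.22 ± 0.40) and Mcm4, a helicase subunit, from 85.3 and 83 to 392 and 290.2 CPM (2.02 ± 0.24). In none of the 38 did the groups overlap, and over all genes tested 77.3% did not overlap. All 38 were lower in replicate 4 than in replicate 1 at 24 h, by a median of -0.56 on the log2 scale, while over all genes that median was 0.00 and 49.0% were lower.

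Mitosis genes separated the 2 libraries of the 24 h group. Of 28 tested 23 were called higher, but the groups were apart for 15 only, against 77.3% of all genes tested. Top2a, topoisomerase II of dividing cells, stood at 169 and 199 CPM in unstimulated cells and at 745 in replicate 1 and 334 in replicate 4 at 24 h (1.55 ± 0.27). Aurkb, a mitotic kinase gene, stood at 12.4 and 14.1 and then at 61.2 and 27 (1.76 ± 0.25). All 28 mitosis genes were lower in replicate 4, by a median of -1.31 on the log2 scale. Relative to the mean of the unstimulated pair, the median mitosis gene stood at 1.53 in replicate 1 and at 0.20 in replicate 4 on the log2 scale, and at 3.10 and 2.92 at 72 h. Without replicate 1 of the 24 h group 5 mitosis genes were called higher and 2 lower, with log2 fold changes of 0.82 for Top2a, 0.99 for Aurkb and 0.81 for Bub1. With only the 4 libraries in the fit 10 were called higher.

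**Figure D4:**
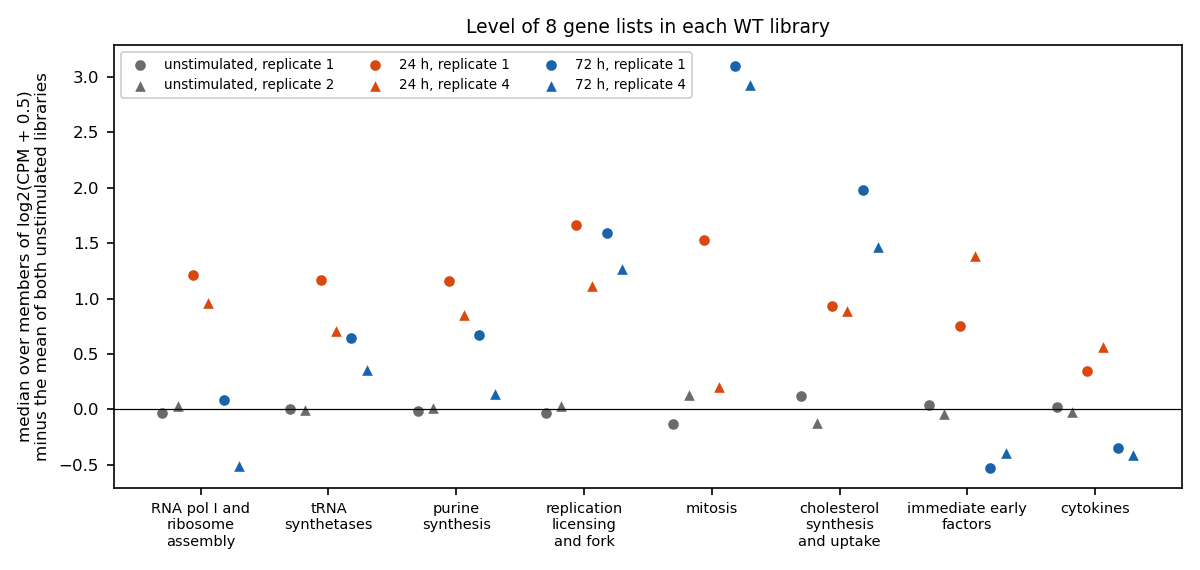
Median over the members of 8 gene lists of log2(CPM + 0.5) minus the mean of both unstimulated libraries, for each wild-type library. At 24 h the mitosis list stands at 1.53 in replicate 1 and at 0.20 in replicate 4, and the ribosome assembly list at 1.21 and 0.96.

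The same order of the 24 h libraries held for growth lists and was turned for others, among them immediate early, interferon-stimulated and naive factor genes. Replicate 4 lay below replicate 1 for 14 of 14 purine, 20 of 23 synthetase, 28 of 29 nuclear transport and 22 of 23 import genes. It lay above for all but 6 of 21 immediate early genes, all but 6 of 40 interferon-stimulated genes and all but 2 of 26 naive factors. Replicate 4 was also the shallower library, and the part of depth in these differences was not tested.

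G1 regulators changed at both ends, 15 higher and 7 lower of 26. Ccnd2, encoding cyclin D2, rose from 194 and 192 to 1262 and 1327 CPM (2.75 ± 0.16, adjusted p = 3.97e-13) and E2f1, an activator of S phase genes, from 3.61 and 3.77 to 39.7 and 28.6 CPM (3.22 ± 0.34). Cdkn2d, encoding the CDK inhibitor p19, fell from 38.3 and 35.1 to 14.9 and 11.8 CPM (-1.44 ± 0.12), and Rbl2, the pocket protein of resting cells, from 137 and 138 to 76.4 and 89.5 CPM (-0.73 ± 0.11). Ccnd1 fell from 27.7 and 21.3 to 3.06 and 3.41 CPM (-2.93 ± 0.31).

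Of 21 genes of the BCL2 family and apoptosis 5 rose and 8 fell. The antiapoptotic genes Bcl2l1 and Bcl2 rose from 20.9 and 23.4 to 117 and 82.2 CPM (2.18 ± 0.27) and from 196 and 206 to 496 and 587 CPM (1.43 ± 0.23), but so did Bcl2l11, encoding the proapoptotic BIM, from 48.3 and 54.6 to 92.2 and 134 CPM (1.13 ± 0.21). Bmf, another proapoptotic member, fell from 15.6 and 15.1 to 1.77 and 1.75 CPM (-3.12 ± 0.42). Of 20 p53 target genes 9 rose and 6 fell. Cdkn1a, encoding the CDK inhibitor p21, rose from 0.561 and 0.992 to 9.51 and 8.11 CPM (3.52 ± 0.45) and Bbc3, encoding PUMA, fell from 6.46 and 8.18 to 2.85 and 2.95 CPM (-1.34 ± 0.35).

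Interferon-stimulated genes divided into 2 sets. Of 40 tested 12 rose and 22 fell, 9 and 17 of them by at least 2-fold. The guanylate-binding and immunity-related GTPases, whose genes interferon gamma induces strongly, were among the higher ones. Gbp2 rose from 79.6 and 70.7 to 1072 and 1748 CPM (4.23 ± 0.27, adjusted p = 2.45e-12), Gbp5 from 24 and 24.1 to 322 and 404 CPM (3.92 ± 0.22), Igtp from 117 and 125 to 640.1 and 768 CPM (2.54 ± 0.15) and Iigp1 from 35.2 and 33.2 to 272 and 444 CPM (3.39 ± 0.33). Ly6a, encoding the surface antigen Sca-1, rose from 62 and 62 to 408 and 619 CPM (3.05 ± 0.26). Every one of these was higher in replicate 4 than in replicate 1.

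Several antiviral genes known best as targets of type I interferon were lower. Outside the naming rule, and chosen after their values were seen, are Mx1, Mx2, Oas2, Oasl1, Rsad2 and Irf7. Mx1, an antiviral GTPase gene, fell from 24.7 and 20.7 to 2.2 and 1.2 CPM (-3.65 ± 0.58) and Rsad2, encoding viperin, from 11.1 and 15 to 0.865 and 1.57 CPM (-3.53 ± 0.79). Oas2, an RNA sensor gene, fell from 20.2 and 18.5 to 2.2 and 3.32 CPM (-2.86 ± 0.48) and Irf7, the regulator of type I interferon, from 77.7 and 75.6 to 17.1 and 28 CPM (-1.78 ± 0.27). For Mx1, Rsad2, Oas2 and Irf7 both 24 h libraries lay below both unstimulated ones. B and myeloid cells also express this set, and their markers were lower at 24 h, with B cell markers at 395 and 234 against 3289 and 3202. Their part in the decrease was not tested. Leaving out replicate 1 of the 24 h group left 14 members called lower.

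**Figure D5:**
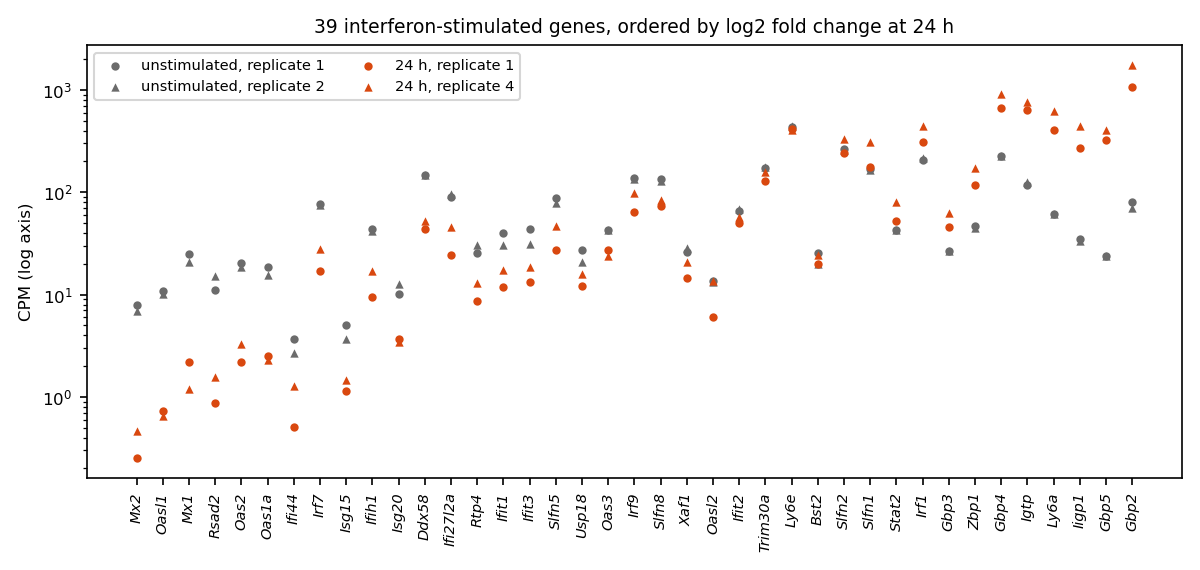
CPM of 39 of the 40 interferon-stimulated genes in the unstimulated and the 24 h libraries on a log axis, ordered by log2 fold change; each point is 1 library. Mx2, Oasl1 and Mx1 stand at the lower end and Iigp1, Gbp5 and Gbp2 at the upper end.

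Of 14 genes for antigen presentation by MHC class I 3 rose and 4 fell, near the shares over all genes tested. H2-K1 fell from 1892 and 1840.2 to 997 and 1238 CPM (-0.74 ± 0.11) and Tapbp, the loading chaperone tapasin, rose from 192 and 188 to 326 and 405 CPM (0.94 ± 0.11). Nlrc5, the transactivator of the class I genes, rose from 322 and 313 to 427 and 537 CPM (0.60 ± 0.13). Class I genes are near-identical in sequence, so the split of reads between H2-K1, H2-D1 and H2-Q4 is uncertain.

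More homing and adhesion receptors fell than rose, with 17 lower and 2 higher of 27 and a median of -1.10. With no filter on low counts 4 were called higher. Itgb7, the beta 7 integrin of gut homing, fell from 429.5 and 405 to 152 and 195 CPM (-1.27 ± 0.20) and Ccr9, the gut chemokine receptor, from 67.3 and 61 to 14.6 and 22.4 CPM (-1.81 ± 0.34). Cxcr5, which B cells and follicular helper T cells carry, fell from 49.9 and 43.1 to 14.5 and 7.83 CPM (-2.03 ± 0.30, and -2.61 without replicate 1 of the 24 h group). Itgal, the LFA-1 alpha chain, rose from 177 and 178 to 464 and 413 CPM (1.30 ± 0.12) and Ccr4, a skin-homing receptor, from 10.8 and 12.5 to 24.9 and 35.9 CPM (1.37 ± 0.24). Ccr7, a lymph node homing receptor gene chosen after its values were seen, did not pass the test, with a mean of 231 CPM before and 306 at 24 h (0.41 ± 0.17, adjusted p = 0.0543).

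Regulators of G protein signalling, which shorten chemokine responses, fell in 8 of 11 cases and rose in 2. Rgs2 fell from 59.9 and 53.1 to 3.71 and 6.64 CPM (-3.50 ± 0.43) and Rgs14 from 69.9 and 70.8 to 23.2 and 21.8 CPM (-1.64 ± 0.14). Rgs16 rose from 2.9 and 2.62 to 12.6 and 16.4 CPM (2.38 ± 0.35), and Rgs1 too, though that call was lost without replicate 4 of the 24 h group or replicate 1 of the unstimulated group. Of 8 GIMAP genes, which encode survival GTPases of lymphocytes, 4 fell and 1 rose. Gimap6 fell from 717 and 708 to 371 and 426 CPM (-0.84 ± 0.18) and Gimap8 from 434 and 434 to 214 and 299 CPM (-0.76 ± 0.16).

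Lysosome and autophagy genes were lower in 19 and higher in 2 of 35 cases. Ctsb and Ctsd, encoding cathepsins, fell from 200.4 and 198 to 94.4 and 84.1 CPM (-1.16 ± 0.08) and from 317 and 337 to 160.4 and 133 CPM (-1.16 ± 0.16), and Tfeb, the regulator of the pathway, from 23.2 and 23.1 to 8.14 and 9.4 CPM (-1.41 ± 0.19). Gabarapl1 and Tfe3 rose, by 0.91 and 0.49. Myeloid cells are rich in cathepsins, and the myeloid markers Csf1r and Adgre1 went from 61.1 and 68.9 to 1.15 and 1.29 and from 31.8 and 27.6 to 0.072 and 0 CPM. Their part in these decreases was not tested.

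Among 14 cytotoxic granule genes Gzmb alone rose and 5 fell. Gzma fell from 30.1 and 31.9 to 1.15 and 6.45 CPM (-3.27 ± 0.63) and Fgl2 from 26.1 and 27.6 to 4.21 and 4.33 CPM (-2.65 ± 0.53). The log2 fold change of Gzma was -2.31 without replicate 1 of the 24 h group and -4.73 without replicate 4. NK cells carry these transcripts too. The NK receptor genes Ncr1 and Klrb1c went from 16.8 and 12.6 to 0.252 and 0.922 CPM and from 40.7 and 37.7 to 1.33 and 2.12 CPM, and their part in these decreases was not tested. With only the 4 libraries in the fit 5 became 8 lower genes.

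RNA processing genes rose broadly. Of 35 splicing regulators 26 rose and 5 fell. Hnrnpa1 and Hnrnpd, encoding RNA-binding proteins of the nucleus, rose from 169.6 and 179.9 to 838 and 691 CPM (2.13 ± 0.15) and from 50.4 and 51.2 to 317 and 256 CPM (2.49 ± 0.21). Hnrnpa3 rose from 96.9 and 106 to 1088 and 1039 CPM (3.39 ± 0.16) and was at least 536 CPM in all 32 stimulated libraries. The fallers Clk1 and Clk4 encode kinases of splicing factors, and Clk1 went from 480.2 and 543 to 199 and 292 CPM (-1.06 ± 0.22). Srsf5 fell by 0.68 ± 0.11. Leaving out replicate 1 of the 24 h group left 17 splicing regulators called higher.

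The series also asks about ARS2, an adaptor of the nuclear cap-binding complex, whose gene is Srrt. Srrt stood at 159 and 149.96 CPM before and at 244 and 131 CPM at 24 h, groups that overlap (0.28 ± 0.25, adjusted p = 0.369). Without replicate 4 it was called higher (0.67, adjusted p = 0.0444), so the outcome of the test depends on that library. Of 16 genes of the complex and its partners 12 rose and none fell. Drosha, the microRNA processing nuclease, rose from 26.9 and 24.3 to 87.8 and 78.5 CPM (1.70 ± 0.16), and Ncbp2 and Ncbp1, the cap-binding subunits, from 22.6 and 22.8 to 49.6 and 46.9 CPM (1.09 ± 0.15) and from 75.5 and 77.2 to 142 and 122 CPM (0.79 ± 0.14).

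More chromatin genes rose than fell, with 18 higher and 3 lower of 24. Ezh2, the Polycomb methyltransferase, rose from 37.2 and 43.3 to 226 and 146 CPM (2.21 ± 0.19), Hells, a helicase needed for DNA methylation, from 27 and 30.1 to 246 and 156 CPM (2.82 ± 0.27), and Kdm6b, a histone demethylase, from 19.3 and 20.1 to 99 and 158 CPM (2.70 ± 0.19). Tet1 fell from 31.4 and 33.4 to 16.9 and 13 CPM (-1.10 ± 0.21).

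The 20 largest decreases under the same naming rule included genes that other blood cells express. Siglecg and Bcl11a, B cell genes, went from 119 and 109.5 to 0.829 and 0.277 CPM and from 110.3 and 112 to 1.08 and 0.369 CPM. Syk and Lyn, kinases of B and myeloid cells, went from 179 and 187 to 3.35 and 2.03 and from 78.9 and 81.2 to 2.16 and 1.47 CPM, and Jchain, of plasma cells, from 215 and 377 to 8.36 and 1.01 CPM. Replicate 4 at 24 h was the lower of the pair for these B cell genes, so that without replicate 1 the log2 fold changes were -8.70 for Siglecg, -8.26 for Bcl11a and -8.22 for Jchain, against -7.46, -7.05 and -5.81 with it. Further genes of this set were Mef2c, Lrrk2, Wdfy4, Ciita, Mpeg1, H2-Ob, Zeb2 and Axl, with log2 fold changes from -6.65 to -3.48. Without replicate 1, Wdfy4 and Mpeg1 stood at -7.92 and -4.89. Scd1, Dtx1, Rgs2, Lars2 and AY036118 also belonged to the 20. So did S100a4 and Rap1gap2, which T cells also express and which fell from 33.7 and 37.8 to 1.98 and 2.49 CPM (-4.03 ± 0.63) and from 23.6 and 27.4 to 1.87 and 3.04 CPM (-3.44 ± 0.46). Outside predicted genes with numbered names, small noncoding genes, receptor segments and marker lists, 63 genes had at least 5 CPM in both unstimulated libraries and at most 3 counts in each 24 h library. The most abundant protein-coding ones were Vcam1, Slc40a1, Aqp1 and Mrc1, genes of macrophages, endothelium and red cells. Under the same limits the pseudogene Rps12l1 showed the reverse pattern.

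Genes were also ranked by amount rather than fold, again without predicted, mitochondrial and small noncoding genes. Those whose mean CPM grew most were Ncl, Hsp90ab1, Hspa8, Pabpc1, Samhd1, Gbp2, Ccnd2, Srrm2, Hnrnpa3 and Npm1. Srrm2, a splicing scaffold gene, went from 512 and 599 to 1574 and 1657 CPM (1.54 ± 0.08) and Hspa8, a chaperone gene, from 1620.1 and 1628 to 3523 and 3122 CPM (1.03 ± 0.15). Among the genes that the rule covers, those whose mean CPM fell most, after AY036118 and Lars2, were Eef1a1, Macf1, Rps27, H2-K1, Tmsb4x, Rplp1, Rack1 and Ahnak. The TMM factors were 0.859 and 0.826 in unstimulated libraries and 1.05 and 1.04 at 24 h. A small fall in CPM is therefore not by itself a fall in the share of all counts. Both AY036118 and Lars2 differed widely within the unstimulated pair, at 816 and 5774 CPM and at 1251 and 4537 CPM. The call of AY036118 was lost with DESeq2. Lars2 lost its call without replicate 1 or 4 at 24 h or without replicate 2 of the unstimulated group (log2 fold changes -7.13, -6.62 and -5.62, against -6.83). Eef1a1, the elongation factor gene, went from 10827 and 10787 to 8896 and 8784 CPM (-0.29 ± 0.08), a call lost with only the 4 libraries in the fit. Macf1, a cytoskeletal linker gene, fell from 3013 and 3015 to 1271 and 1574 CPM (-1.08 ± 0.19) and Tmsb4x, which encodes an actin-binding peptide, from 1869 and 1855 to 1059 and 1175 CPM (-0.74 ± 0.11).

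The 72 h libraries show where these genes stood at a later time. Between 24 h and 72 h 2834 genes (15.5%) were higher and 2559 (14%) lower at 72 h. Since both contrasts use the 24 h libraries, the values stand side by side and neither supports the other. Irf4 stood at 107 and 96.9 CPM at 72 h, Nr4a3 at 8.82 and 18.7, Ccl3 at 0.818 and 3.44 and Ifng at 1.33 and 3.23, each lower than at 24 h (log2 change -3.02 ± 0.28, -3.89 ± 0.34, -4.15 ± 0.73 and -4.68 ± 0.82). Il2ra (648 and 403), Il12rb2 (159 and 174) and Gzmb (737 and 498) did not pass the test between 24 h and 72 h, with log2 changes of -0.44 ± 0.26, 0.39 ± 0.29 and 1.07 ± 0.65.

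Lists also differed in where they stood at 72 h. Of the 35 ribosome assembly genes 30 were lower at 72 h than at 24 h and 0 higher. Of the 28 mitosis genes 28 were higher at 72 h, and of the 26 cholesterol genes 22. Of 38 replication genes 1 was higher and 0 lower. Several genes low at 24 h stood high again at 72 h: S100a4 at 16.5 and 17.7 CPM, Rap1gap2 at 28.8 and 28.4 and Ahnak, a large scaffold gene, at 1564 and 1614 after 452 and 524 at 24 h and 1087 and 1074 before.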

How the data were processed

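Total RNA was ribo-depleted and sequenced as strand-marked paired reads, per the labels' protocols. STAR, RSEM and limma and the build mm10 are named, per the submitters' processing notes, without versions, and whether counting used strand is not given in the sources used here. The deposited table holds expected counts per gene as the authors made them, and these were rounded to whole numbers. In all, 48144 of 48526 listed genes were paired with GENCODE names and 18292 passed edgeR's filter on low counts. Depth was 47.8 and 44.0 M counts (M is 1000000) in unstimulated libraries and 26.4 and 10.4 M at 24 h, which limits low genes most. Groups were taken from the titles. One quasi-likelihood model with a mean for each of 13 groups over all 34 libraries was fitted (edgeR 4.0.16, R 4.3.3, TMM scaling), and all groups shared the estimate of spread. Standard errors are the log2 fold change divided by the square root of F, and CPM are counts per 1000000 scaled by TMM.

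Alternatives were RLE scaling, DESeq2 1.42.0, limma-voom (limma 3.58.1), no filter, the 4 libraries alone, protein-coding nuclear genes alone, no mitochondrially encoded genes, an adjusted p of 0.01 and leaving out each library. The fitting was tested on simulated data. Genes were named by a rule: the 20 largest called changes per direction with no overlap and log2 CPM averaging 3 or more, the 10 largest changes in mean CPM, up to 6 members of a list by p with up to 3 called against its direction, genes with at most 3 counts in one group and at least 5 CPM in the other, and Srrt, Cd28 and Pkm. The first 2 parts leave out predicted, mitochondrial, small noncoding, antigen receptor and Y-linked genes, Xist and markers of other cells. The members and lists were chosen with earlier results of these data known. Some genes that the rule names are not reported here.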

Additional observations from a re-analysis of the deposited data

How the results depend on the processing

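The 9390 calls became between 7207 and 9735 under the 8 alternatives that kept all 4 libraries, and between 7114 and 8447 when 1 library was left out. In the latter, 3153 to 4009 genes were higher, 3961 to 4438 lower, and 4144 to 4916 differed by at least 2-fold (1680 to 2073 higher, 2464 to 2843 lower). The number of lists with more members higher than lower was 32 to 36, against 35, and of those with more lower 23 to 26, against 26. Of the 40 genes with the largest fold changes 38 were called by DESeq2 and 39 or 40 in each other alternative. Among the named genes 47 lost their call in at least 1 alternative, 2 that had none gained one and 0 changed direction. Of 1488 list counts 63 moved by over 1.5 times, most often without replicate 1 at 24 h. With RLE scaling the median log2 fold change over all genes was -0.06, against -0.02. With 1 library left out, the lone library of a group was assumed to vary like the other groups. No paired analysis was possible for the 24 h against the unstimulated group because the 24 h libraries are numbered 1 and 4 and the unstimulated ones 1 and 2, so that only 1 number is shared. The 24 h and 72 h groups share the numbers 1 and 4, which the labels tie to no animal or day. With the replicate number as a block, an alternative chosen after seeing the data, 5597 genes were called between them (2914 higher and 2683 lower at 72 h), against 5393 without it, and the adjusted p was 0.143 for Il2ra, 0.296 for Il12rb2 and 0.214 for Gzmb. The difference of replicate 4 from replicate 1 correlated between the days at 0.55 over 9280 genes, which are not independent. The shallowest library, replicate 4 at 24 h, sets how low a gene can be compared, and reads of near-identical genes (MHC class I, globins, GTPases of the GBP family, ribosomal protein pseudogenes) may have been shared out between copies. The check of transcript length and GC content was void, since only 8837 of 13359 tested protein-coding genes had a value.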

Other observations

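Classes of RNA also differed between 24 h and unstimulated cells. Of 132 immunoglobulin V segments 127 were lower, and of 128 T cell receptor V segments 43 were lower and 2 higher. Of 131 small nucleolar RNAs 103 were lower and 23 higher, of 35 small nuclear RNAs 33 were lower, and of 17 small Cajal body RNAs 15 were lower. In the same libraries small noncoding RNA took 14.8% and 15.3% of counts before stimulation and 4.17% and 4.39% at 24 h, and the part of library composition in these differences was not tested. Of 1067 transcripts of the class awaiting experimental proof 324 were higher and 93 lower. Mitochondrially encoded messenger RNAs rose in 8 of 13 cases and fell in 1, while both mitochondrial ribosomal RNAs were lower.

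Redox genes that the factor NRF2 regulates were higher in 11 and lower in 5 of 23 cases, polyamine genes in 6 and 4 of 13, and cytoskeleton genes in 8 and 8 of 26. Without replicate 1 of the 24 h group 3 polyamine genes were called higher.

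Some genes were at 0 in one set of libraries only. The pseudogenes Rps12l1 and Gm12896 and the predicted gene Gm37376 had 0 counts in both unstimulated libraries and at least 10 in all 32 stimulated ones. In the reverse direction, 7 genes had at least 100 counts in both unstimulated libraries and 0 in all 32 others: Cldn13, C6, Epb41l3, Slc25a21, Sh3tc2, Sirpb1a and AY036118. AY036118 held 33469 and 209561 counts in the unstimulated libraries, which is 816 and 5774 CPM. Its call was lost with DESeq2 (log2 fold change -18.3 ± 8.5, adjusted p = 0.0625). These genes were chosen after their values were seen.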
